A study of Oryza sativa Japonica Group with 9 samples.

Results

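The PHT1 genes PT1 to PT10 of rice encode phosphate transporters of the plasma membrane, and they are described here in roots short of nitrogen or phosphorus. The genes were chosen by family membership and locus ID, by a rule that uses no measured value, though with earlier results of these data known. Of the 10 genes named, 9 had a row in at least 1 of the deposited tables, out of 35902 genes listed in either. The table for nitrogen held 8 of them and the table for phosphorus held 9. PT7 (Os03g0136400) was in neither table and PT10 was not in the nitrogen table, so these were not analysed here. Roots came from rice, Oryza sativa Japonica, of the cultivar Nipponbare, and the labels name no mutation or transgene. The groups were control nutrients (labelled CK), N deficiency and P deficiency, with 3 biological replicates each, and the same 3 control libraries stood in both tables. The sources used here do not state the age of the plants, the make-up of the nutrient solution or the length of the deficiency.

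PHT1 proteins carry phosphate together with protons across the plasma membrane, from soil into root cells and between tissues. In rice and Arabidopsis, transcription factors of the PHR family activate many PHT1 genes when phosphate runs short, while SPX proteins bind and restrain PHR factors when phosphate is plentiful. After translation, PHF1 lets PHT1 proteins leave the endoplasmic reticulum, and the ubiquitin enzymes PHO2 and NLA1 direct them to breakdown. Rice PT11 works in roots colonised by arbuscular mycorrhizal fungi, where it takes up phosphate that the fungus delivers.

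Each library held between 17931023 and 22752492 reads counted in genes. Values below are normalised reads, the read count of a gene divided by 1 size factor per library, with all 9 libraries scaled together. They are listed in the order of replicates 1, 2 and 3, and group means carry the SD with n = 3. Tests against control used the values as the authors scaled them, table by table. Fold changes were taken after adding 1 to each value, on a log2 scale, so those of genes with few reads come out too small; they carry their SE. A gene was called when its Benjamini-Hochberg adjusted p from limma was under 0.05. Root identity was checked with 5 markers of rice root cells, including the silicon transporters Lsi1 and Lsi2. Of the 6 markers listed, CASP1 was not measured in all libraries and was left out. The summed level of the 5 measured was 121125 to 133389 normalised reads in control. The summed level of the 5 was 121348 to 122437 with N deficiency and 84102 to 153076 with P deficiency. Limma called none of the 5 in any comparison, where it called 3.78% to 12.8% of all genes tested, so this shows little. Photosynthesis genes, taken as markers of shoot tissue, summed over 44 genes to 28182 to 75784 normalised reads in control libraries. Their sum was 9288 to 13092 with N deficiency and 22656 to 31232 with P deficiency. Of these 44 genes, limma called 31 lower under N deficiency, where 5.94% of all genes tested were lower, and 1 lower under P deficiency, where 2.7% were. The PsbY gene Os08g0119900 was at 0 in both deficiencies, and the chlorophyll a-b binding protein gene Os04g0457100 was at 0 under P deficiency. Their part in the PHT1 results was not tested.

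**Figure D1:**
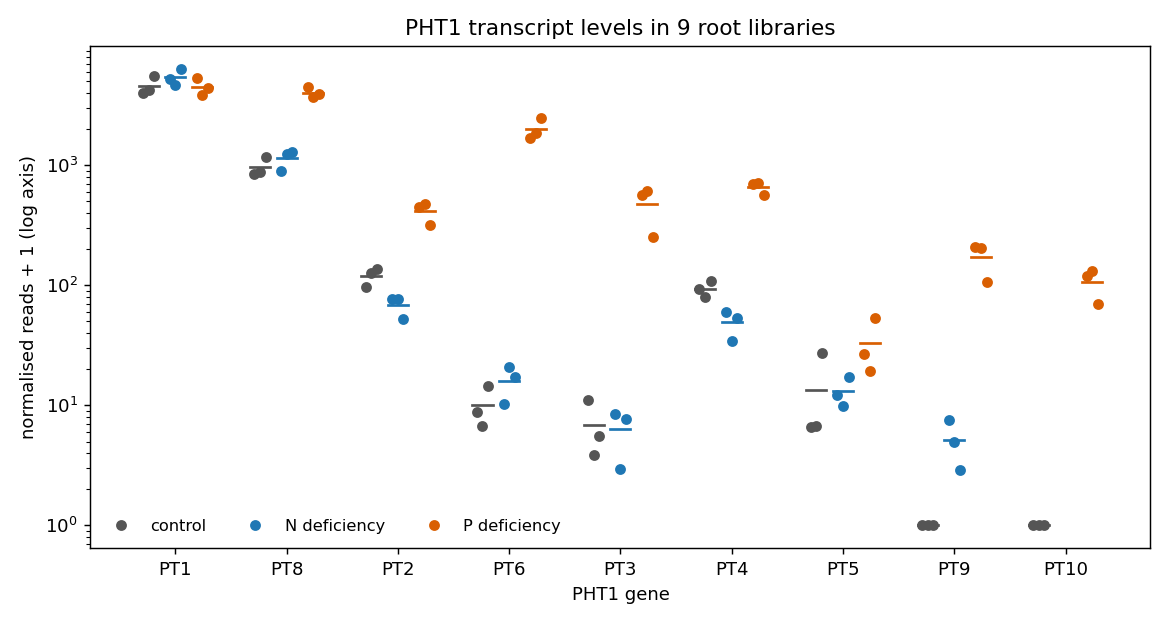
Normalised reads plus 1 on a log axis for each PHT1 gene, with 1 point per library and a bar at the group mean (control grey, N deficiency blue, P deficiency orange). PT1 sits near the same level in all 3 groups, while PT6 goes from 5.67 to 13.6 in control to 1674 to 2499 under P deficiency, and PT10 has no value under N deficiency.

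Phosphorus shortage was compared with control nutrients to find root genes that respond to it. Of the 9 PHT1 genes tested, 7 rose, none fell and 2 were not called, where limma called 6.28% of all 32576 genes tested, 3.58% higher and 2.7% lower. The genes that rose were PT2, PT3, PT4, PT6, PT8, PT9 and PT10. Their responses spanned a wide range, from a log2 fold change of 1.78 for PT2 to 7.70 for PT6. PT9 and PT10 had no control read, so only their ratio to a floor is given. PT1 and PT5 were the genes not called. The median log2 fold change was 2.80 over the 9 genes, also with PT9 and PT10 at the ratios to the floor given below, and 0.00 over all genes tested. The levels of the same 7 genes did not overlap between the groups, against 27.8% of all genes in either direction, 13.3% higher and 14.5% lower. These are whole roots, so a change in the number of cells that express a gene and a change in its RNA per cell cannot be told apart.

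PT1 (Os03g0150600), a broadly expressed uptake transporter of rice, had the highest level per kb in control. It had 3988, 4246 and 5554 normalised reads in control and 5331, 3873 and 4387 under P deficiency. These ranges overlapped almost wholly. The log2 fold change was -0.02 ± 0.169, with a 95% interval from -0.41 to 0.38 (limma, adjusted p = 0.966 by Benjamini-Hochberg). A change beyond those bounds lies outside the interval, while smaller changes in either direction lie within it.

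PT8 (Os10g0444700) takes up phosphate in rice roots and also acts elsewhere in the plant, and per kb it came next after PT1 in control. Its normalised reads were 846, 880 and 1181 in control and 4481, 3671 and 3955 under P deficiency. All P-deficient libraries lay above all control libraries. PT8 rose 4.17-fold in group means, a log2 fold change of 2.07 ± 0.148 (limma, adjusted p = 5.0e-04 by Benjamini-Hochberg).

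PT6 (Os08g0564000) and PT2 (Os03g0150800) both move phosphate inside the plant in rice, PT6 with a high affinity that also serves uptake and PT2 with a low affinity. PT6 was almost silent in control, at 7.87, 5.67 and 13.6 normalised reads, from 28 reads in all. It had 1674, 1847 and 2499 under P deficiency. It rose 222-fold in group means, a log2 fold change of 7.70 ± 0.298 (limma, adjusted p = 2.1e-05 by Benjamini-Hochberg). PT2 was already present in control, at 95.5, 125 and 136, and had 451, 472 and 315 under P deficiency. Its libraries also separated, but by a smaller step of 3.48-fold in group means. The log2 fold change of PT2 was 1.78 ± 0.200 (limma, adjusted p = 0.0034 by Benjamini-Hochberg).

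PT3 (Os10g0444600) and PT4 (Os04g0186400) take up phosphate in rice roots. PT3 had 10.1, 2.83 and 4.53 normalised reads in control, from 17 reads in all, and 570, 613 and 254 under P deficiency. Every P-deficient library was far above control, although replicate 3 was below the other replicates. The log2 fold change of PT3 was 6.17 ± 0.478 (limma, adjusted p = 6.8e-04 by Benjamini-Hochberg). PT4 had 92.2, 78.4 and 109 in control and 697, 704 and 560 under P deficiency. PT4 rose 7.02-fold in group means with no overlap, a log2 fold change of 2.80 ± 0.159 (limma, adjusted p = 1.4e-04 by Benjamini-Hochberg).

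PT5 (Os04g0185600) was low in every group. Its normalised reads were 5.62, 5.67 and 26.3 in control and 26.0, 18.4 and 52.2 under P deficiency. Replicate 3 was the highest library in both groups, and the control value of that replicate lay above P-deficient replicates 1 and 2. The log2 fold change of PT5 was 1.51 ± 0.641 with a 95% interval from 0.01 to 3.0, and it was not called (limma, adjusted p = 0.228 by Benjamini-Hochberg). At this spread a rise of several fold and almost none were both within the interval.

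PT9 (Os06g0324800) and PT10 (Os06g0325200) are close paralogs that serve phosphate uptake in rice roots, and no control library had a read of either. PT9 had 208, 203 and 105 normalised reads under P deficiency, from 486 reads. PT9 was higher than control (limma, adjusted p = 7.3e-05 by Benjamini-Hochberg). Its mean was 174-fold a floor of 3 reads over all control libraries. PT10 had 119, 131 and 69.3 under P deficiency, from 302 reads, and was higher than control (limma, adjusted p = 1.2e-04 by Benjamini-Hochberg). Its mean was 107-fold the same floor. These ratios leave out the counting error and spread of the P-deficient reads, so they are not lower bounds. In both genes replicate 3 was the lowest P-deficient library. Because these are close copies, the split of reads between them depends on how reads that match both were counted, which the sources used here do not state.

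None of the other PHT1 genes listed, PT11, PT12 and PT13, was called. PT11 had no row and was not analysed here. PT12 had 10.1, 5.67 and 3.62 normalised reads in control and 0, 3.06 and 0 under P deficiency, which is 19 reads against 3. Control was thus 5.97-fold higher (95% counting interval 1.76 to 31.5), but PT12 was not called (limma, adjusted p = 0.123 by Benjamini-Hochberg). PT13, linked to mycorrhizal symbiosis, had at most 3 reads in any library and no fold is given. The other arbuscule markers, the transporter genes STR1 and STR2, were present at low levels in every group, summing to 31.7 to 50.6 in control and 37.0 to 41.9 under P deficiency, and neither was called by limma.

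**Figure D2:**
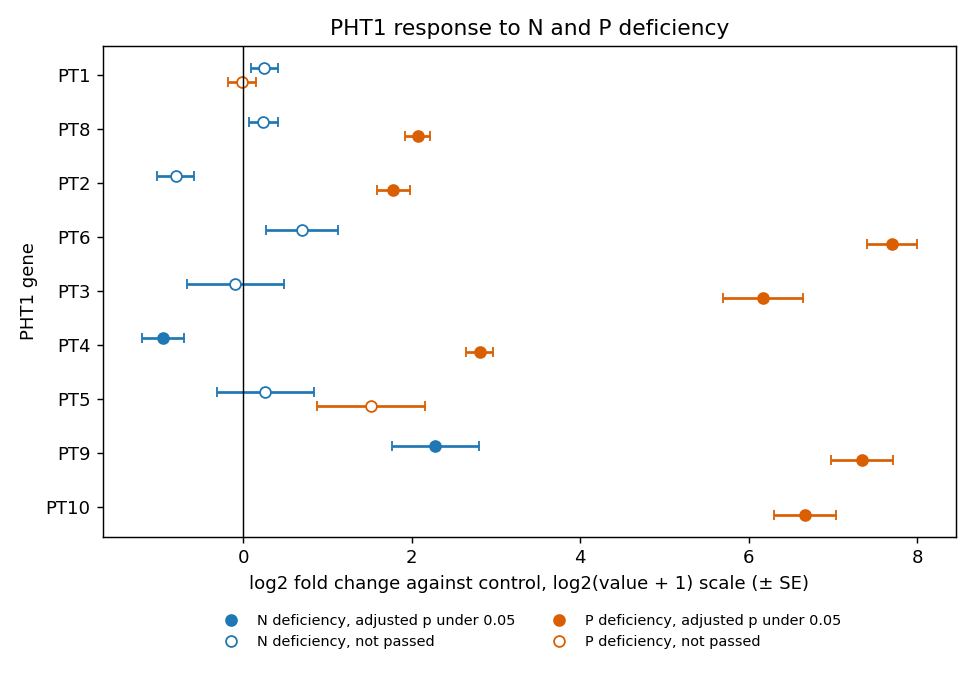
Log2 fold change against control for each PHT1 gene, with bars of ± 1 SE, under N deficiency (blue) and P deficiency (orange), and filled points for adjusted p under 0.05. The 7 filled orange points lie between 1.78 and 7.70, while the blue points lie between -0.95 and 2.28. PT9 and PT10 had no control read, so where their points lie depends on the value of 1 added.

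Nitrogen shortage was compared with control nutrients in the same way, and few PHT1 genes were called. Of 8 tested, PT9 rose, PT4 fell and 6 were not called, which is 25% of them against 12.8% of all 32680 genes tested, 6.9% higher and 5.94% lower. The groups did not overlap for 3 genes, PT9, PT4 and PT2, against 30.9% of all genes, 15.8% higher and 15% lower. The median log2 fold change over the 8 genes was 0.24, also with PT9 at its ratio to the floor, against -0.01 over all genes. Both calls were lost when some single libraries were left out, so neither is firm.

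PT4 went down in every N-deficient library, to 59.3, 33.6 and 52.3 normalised reads, and its lowest control library had 78.4. Control was 1.92-fold higher in group means, and the log2 fold change was -0.95 ± 0.254 (limma, adjusted p = 0.0426 by Benjamini-Hochberg). The call was lost without N deficiency replicate 2 or 3 or without any 1 control replicate, with adjusted p up to 0.118. Of 13 alternative fits PT4 was called in 8, among them edgeR's quasi-likelihood test (Benjamini-Hochberg adjusted p = 0.0362). PT2 had 75.9, 76.2 and 51.4 under N deficiency, also below all control libraries. Its log2 fold change of -0.80 ± 0.223 stood at the threshold without passing it (limma, adjusted p = 0.0500017 by Benjamini-Hochberg). The authors' deposited table gives PT2 a log2 fold change of -0.81 with an adjusted p of 0.0165. For PT4, the authors' deposited table gives -0.94 with an adjusted p of 0.0120.

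PT9 had 6.48, 3.96 and 1.90 normalised reads under N deficiency, a total of 13 reads against none in control. PT9 was higher than control (limma, adjusted p = 0.0226 by Benjamini-Hochberg), and its mean was 4.16-fold the same floor of 3 control reads. This ratio leaves out the error of the 13 reads, so it is not a lower bound. The call was lost without N deficiency replicate 1 or 2 or control replicate 1 or 2, with adjusted p up to 0.0811. It was also lost in edgeR's quasi-likelihood test (Benjamini-Hochberg adjusted p = 0.0589). The authors' deposited table gives PT9 a p of 0.0101, beside an adjusted p of 1 whose adjustment is not stated. A level of a few reads per library is the limit of this depth.

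The transporters most abundant in control were not called under N deficiency. PT1 had 5275, 4678 and 6370 normalised reads, a log2 fold change of 0.25 with a 95% interval from -0.12 to 0.62 (limma, adjusted p = 0.397 by Benjamini-Hochberg). PT8 had 902, 1232 and 1294, a log2 fold change of 0.24 with an interval from -0.16 to 0.64 (limma, adjusted p = 0.454 by Benjamini-Hochberg). Both overlapped control, and both intervals leave room for a small change either way.

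PT6, which rose 222-fold under P deficiency, had 9.26, 19.8 and 16.2 normalised reads under N deficiency, which overlapped control. The log2 fold change was 0.70 with a 95% interval from -0.28 to 1.68 (limma, adjusted p = 0.369 by Benjamini-Hochberg). PT3 stayed at a few reads, with 7.41, 1.98 and 6.66. PT5 had 11.1, 8.90 and 16.2, within the range of control. For neither gene was a change detectable at this depth, as the intervals ran from -1.42 to 1.22 for PT3 and from -1.06 to 1.59 for PT5 on the log2 scale.

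N and P deficiency were also set directly against each other, which tests whether the responses differ. Of 8 PHT1 genes tested, 6 were lower under N than under P deficiency and none was higher, where limma called 3.78% of all 32806 genes, 1.39% higher and 2.4% lower under N deficiency. The 6 were PT2, PT3, PT4, PT6, PT8 and PT9. The P-deficient mean was 133-fold the N-deficient mean for PT6, 89.5-fold for PT3, 41.9-fold for PT9 and 13.5-fold for PT4. The N-deficient means of PT6, PT3 and PT9 rest on 47, 17 and 13 reads in all, so their ratios are imprecise. The ratio was 6.08-fold for PT2 and 3.53-fold for PT8. In log2 terms, N minus P was -7.00 ± 0.341 for PT6 (limma, adjusted p = 1.7e-06 by Benjamini-Hochberg) and -1.83 ± 0.168 for PT8 (limma, adjusted p = 1.6e-04 by Benjamini-Hochberg). PT4 differed by -3.76 ± 0.220 (limma, adjusted p = 6.2e-06 by Benjamini-Hochberg). It was higher than control under P deficiency and lower under N deficiency, where the call was not firm.

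The exceptions were PT1 and PT5. PT1 differed by 0.26 ± 0.173 between the deficiencies (limma, adjusted p = 0.499 by Benjamini-Hochberg), with overlapping libraries. For PT5 every P-deficient library lay above every N-deficient one, but the difference of -1.25 ± 0.586 did not pass (limma, adjusted p = 0.324 by Benjamini-Hochberg). In all, 7 of the 8 genes had groups that did not overlap, against 21.1% of all genes, 10.8% higher and 10.4% lower under N deficiency. The median over the 8 genes was -3.17, against 0.00 over all genes tested.

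Levels can be compared between the transporters only per length of transcript, and were expressed as normalised reads per kb with the deposited gene lengths. In control the order was PT1 at 2388 ± 436, PT8 at 363 ± 69.0, PT2 at 65.2 ± 11.4 and PT4 at 31.2 ± 5.07. No neighbours in that order overlapped. PT5 at 7.27 ± 6.91, PT3 at 5.08 ± 3.32 and PT6 at 4.95 ± 2.24 came next and overlapped each other, and PT9 and PT10 were at 0. Under N deficiency the order of the leading 4 genes was the same. PT6, PT5, PT3 and PT9 followed, each overlapping the next.

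Under P deficiency the order per kb became PT1 at 2353 ± 384, PT8 at 1512 ± 154 and PT6 at 1098 ± 238, with no overlap between them. PT6 thus stood in the third place where it had been among the lowest genes. PT3 at 417 ± 171, PT2 at 227 ± 46.6 and PT4 at 219 ± 27.1 formed a middle group whose neighbours overlapped. The PT3 level holds only the reads assigned to PT3. A gene model that overlaps it on the opposite strand, Os10g0444566, had 266 ± 85.4, and the reads of the pair cannot be told apart. PT9 at 98.5 ± 33.1 and PT10 at 53.5 ± 16.4 overlapped each other, and PT5 was lowest at 18.7 ± 10.3. With the span of the gene in place of its deposited length PT10 had 37.0, and no other level moved by more than its SD.

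Summed over the 8 genes measured in all libraries, PHT1 transcripts came to 2864 ± 526 normalised reads per kb in control and 3330 ± 473 under N deficiency. Under P deficiency the sum was 5943 ± 477, which is 2.07-fold control. Without PT1 the sums were 477 ± 89.8, 504 ± 72.3 and 3590 ± 101, so the P-deficient sum was 7.53-fold control. The size of the response of the family as a whole thus depends on whether PT1 is counted. These sums are given as descriptions, with no test.

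The make-up of the summed transcripts moved accordingly. PT1 made up 83.4% ± 0.190 in control and 84.8% ± 2.48 with N deficiency, but 39.4% ± 3.27 with P deficiency. PT8 went from 12.7% ± 0.154 in control to 25.4% ± 0.590 under P deficiency, and PT6 from 0.168% ± 0.0486 to 18.6% ± 4.73. PT3 went from 0.187% ± 0.145 to 7.03% ± 2.95. The shares and sums hold only the reads assigned to PT3, without those of Os10g0444566. In P deficiency replicates 1, 2 and 3, the share of PT6 was 14.1%, 18.2% and 23.6%. The share of PT3 was 7.67%, 9.61% and 3.81% in the same libraries, so the library with the most PT6 had the least PT3.

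**Figure D3:**
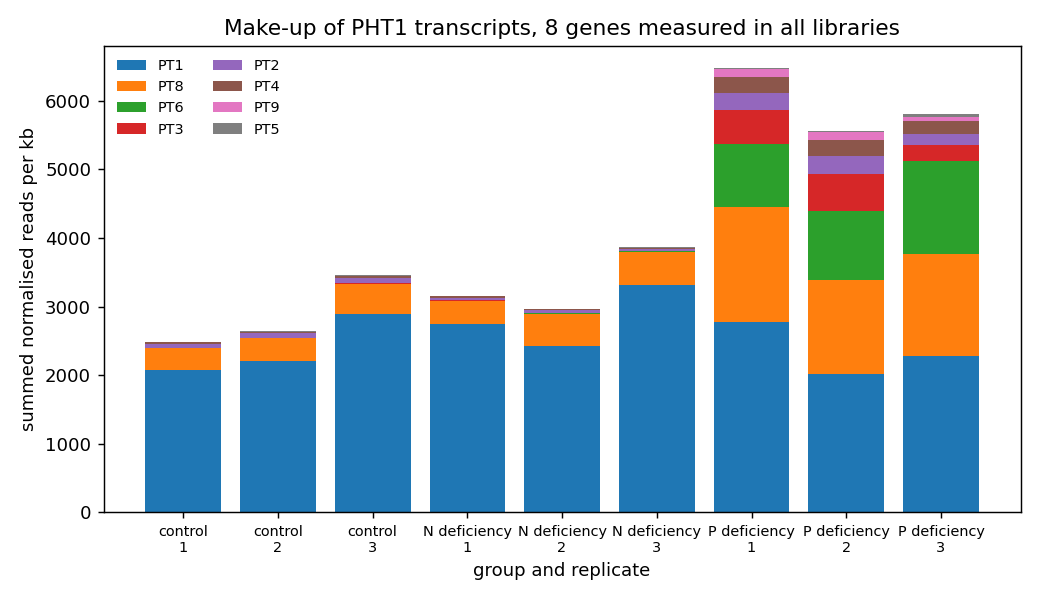
Summed normalised reads per kb in each of 9 libraries, stacked by gene for the 8 PHT1 genes measured in all of them. Sums are 2489 to 3465 in control, 2965 to 3865 with N deficiency and 5554 to 6476 with P deficiency, with PT1 (blue) at a like height throughout and PT8, PT6 and PT3 added under P deficiency.

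Most PHT1 genes lie close to another PHT1 gene, and their values are given here by cluster. Coordinates come from the deposited tables, for which no source used here names the genome build, and all of the genes carry the same deposited domain, a sugar and other transporter domain. On chromosome 3, PT1 (2807616 to 2809540, minus strand) and PT2 (2815502 to 2817322, minus strand) are 5961 bases apart, with PT12 (2804141 to 2805941, plus strand) on the other side of PT1. Under P deficiency PT2 rose while PT1 was not called, and a separate gene between them, Os03g0150700, was not called either, at -0.40 on the log2 scale (limma, adjusted p = 0.337 by Benjamini-Hochberg).

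On chromosome 10, PT3 (16027967 to 16029114, plus strand) and PT8 (16035405 to 16038231, minus strand) are 6290 bases apart. Both rose under P deficiency, PT3 from a few reads and PT8 from a high level. PT3 lies wholly within another gene model on the opposite strand, Os10g0444566 (16027840 to 16029430), which carries the same domain. That model had 8 reads over the control libraries and 434, 383 and 221 normalised reads in the P-deficient ones, a log2 fold change of 6.55 ± 0.381 (limma, adjusted p = 1.6e-04 by Benjamini-Hochberg). No source used here states the strand setting of the counting, so the reads of this pair cannot be told apart. With both counted together, an alternative chosen after seeing the data, the log2 fold change was 6.49 under P deficiency and -0.10 under N deficiency.

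On chromosome 6, PT9 (12679375 to 12681799, plus strand) and PT10 (12691975 to 12694849, minus strand) are 10175 bases apart and face each other. On chromosome 4, PT5 (5811361 to 5813082, minus strand) lies 33203 bases from PT4 (5846286 to 5849272, plus strand), and PT13 (5865168 to 5868179, plus strand) lies 15895 bases beyond. In this cluster PT4 rose under P deficiency, PT5 was not called and PT13 was near 0 reads. PT6 (chromosome 8, 28244202 to 28246028, plus strand) has no listed PHT1 gene on its chromosome.

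A window of 20 kb around each PHT1 gene was chosen after the data were seen. Within it, 10 genes outside the PT1 to PT13 list were tested under P deficiency. Of these, 2 were higher, where 3.58% of all genes tested were. One was Os10g0444566, the model that overlaps PT3 and whose reads cannot be told apart from those of PT3. The other was Os10g0444500, which carries PPR and DYW domains and lies at 16022592 to 16024505, also near PT3. Os10g0444500 had 5.75 ± 0.361 normalised reads in control and 28.7 ± 6.30 under P deficiency on the authors' scale, a log2 fold change of 2.12 ± 0.307 (limma, adjusted p = 0.0094 by Benjamini-Hochberg). Of 11 such neighbours tested under N deficiency, limma called none, where it called 12.8% of all genes tested. In N against P deficiency, 2 of 11 were lower under N deficiency, where 2.4% of all genes tested were. These were Os10g0444566 and Os03g0151100.

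**Figure D4:**
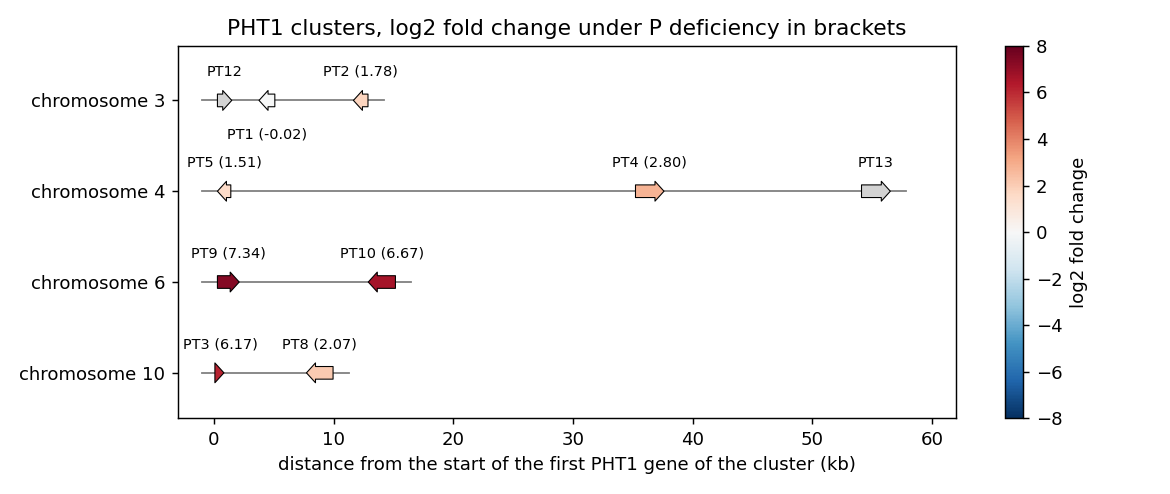
PHT1 genes of the 4 chromosomes that hold more than 1 of the genes plotted, placed by distance in kb from the start of the first gene, with arrows for strand and colour for the log2 fold change under P deficiency (value in brackets, PT12 and PT13 uncoloured for lack of reads). PT1 at -0.02 lies beside PT2 at 1.78, and PT3 at 6.17 lies beside PT8 at 2.07.

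P deficiency replicate 3 stood apart from the other P-deficient libraries for several transporters. Of the 9 PHT1 genes, 5 were lower in it than in both others, 2 were higher and 2 were in between. Its log2 ratio to the mean of the others, with 1 added to each value, was -1.22 for PT3, -0.96 for PT9, -0.84 for PT10, -0.55 for PT2 and -0.32 for PT4. PT1 and PT8 were near the others at -0.07 and -0.04. PT6 and PT5 went the other way, at 0.51 and 1.20. Over all genes with a mean of at least 10 normalised reads under P deficiency, whatever their level, the 5th and 95th percentiles of this ratio were -1.03 and 0.86, so PT3 and PT5 lay outside it. Transporters with few reads left the like range in other libraries too. PT5 was at -1.05 in P deficiency replicate 2, with a 5th percentile of -0.69. In control replicate 3, PT5 was at 2.04 and PT6 at 0.91, with a 95th percentile of 0.76. PT6 had a control mean of 9.04, below the mean of 10 required of the genes behind these percentiles.

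Markers of root cells also differed between the same libraries. RCc3, a root-specific gene among the root markers, had 94680, 84605 and 37649 normalised reads in P deficiency replicates 1, 2 and 3, a log2 ratio of -1.25 for replicate 3. The other 4 root markers measured had ratios from -0.37 to 0.35. CSLD1, a cellulose synthase-like gene needed for root hair growth in rice, had 1360, 2100 and 349 in the same order. RHL1, a regulator of root hair formation, had 175, 262 and 36.1. EXPA17, a root hair expansin, had 361, 867 and 0, while the formin gene FH1 had 684, 599 and 560. Thus 3 of the 4 root hair markers were far lower in replicate 3, and EXPA17 was at 0 there. Under N deficiency EXPA17 also varied, at 45.4, 220 and 22.8, and so did RHL1, at 54.6, 126 and 40.9. In control EXPA17 had 216, 272 and 205, and RHL1 had 147, 84.1 and 101. The summed level of the 4 root hair markers was 946 to 3828 under P deficiency, 1891 to 2116 in control and 1369 to 2188 under N deficiency. Against control, limma called FH1 higher under P deficiency (Benjamini-Hochberg adjusted p = 0.033) and none of the others. The FH1 call was lost without P deficiency replicate 1 or 2 or without any 1 control replicate, with adjusted p up to 0.117. Their part in the PHT1 values was not tested. Without replicate 3 the same 7 of 9 PHT1 genes were called in P deficiency against control, and the same 6 of 8 in N against P deficiency.

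**Figure D5:**
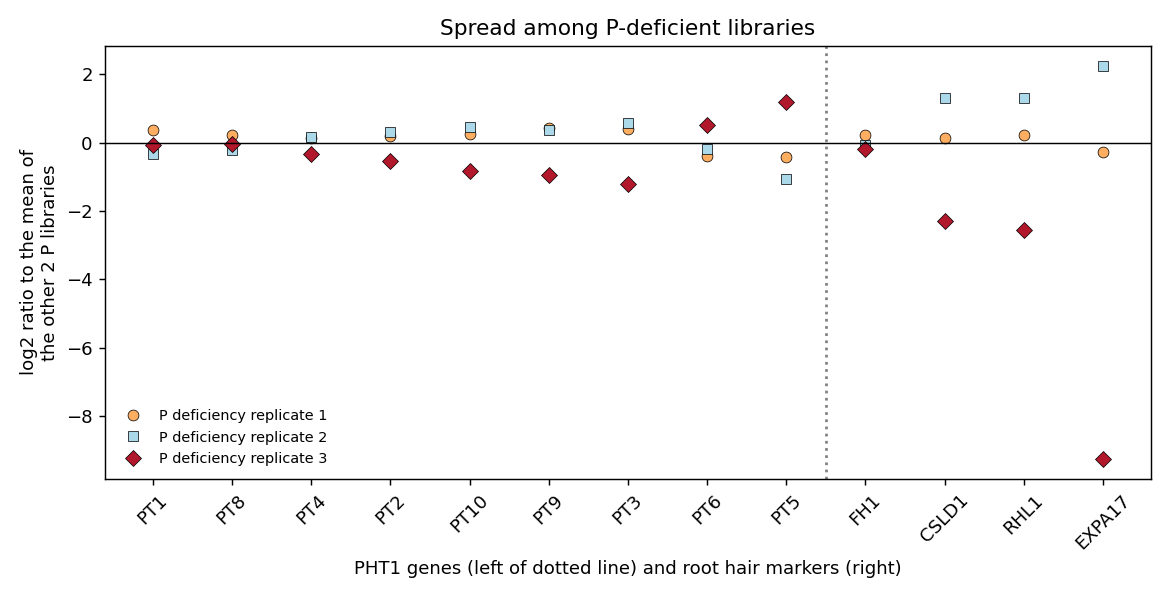
Log2 ratio of each P-deficient library to the mean of the other P-deficient libraries, with 1 added to each value, for 9 PHT1 genes (left of the dotted line) and 4 root hair markers (right). Replicate 3 (red diamonds) runs from -1.22 at PT3 to 1.20 at PT5 among the transporters and is at -2.30 for CSLD1, -2.57 for RHL1 and -9.26 for EXPA17.

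Genes that act on PHT1 proteins or on their transcription were followed through a list of 25 genes, with PT11 to PT13 included. Under P deficiency 10 of 24 measured members rose, 2 fell and 12 were not called, where 3.58% of all genes tested were higher and 2.7% lower. With N deficiency 3 of 22 rose, 3 fell and 16 were not called, where 6.9% of all genes tested were higher and 5.94% lower. The same shares apply to the groups within the list. Among the 4 genes of PHT1 traffic and turnover, PHF1, which releases PHT1 proteins from the endoplasmic reticulum, went in opposite directions, and N minus P was -1.53 (limma, adjusted p = 2.8e-04 by Benjamini-Hochberg). PHF1 fell under N deficiency from 2097 ± 73.8 to 1419 ± 61.1 normalised reads on the authors' scale, a log2 fold change of -0.56 ± 0.0865 (limma, adjusted p = 0.0039 by Benjamini-Hochberg). It rose under P deficiency from 2001 ± 71.1 to 3962 ± 890, which is 0.96 ± 0.167 in log2 (limma, adjusted p = 0.018 by Benjamini-Hochberg). With single libraries left out, the largest adjusted p was 0.024 for the fall. The call on the rise was lost without P deficiency replicate 1 or 2 or any 1 control replicate, with adjusted p up to 0.083.

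PHO2, the ubiquitin-conjugating enzyme of PHT1 turnover, was higher under N than under P deficiency, at 1.13 in log2 (limma, adjusted p = 0.0084 by Benjamini-Hochberg). Against control it had 0.70 ± 0.196 under N deficiency (limma, adjusted p = 0.051 by Benjamini-Hochberg) and -0.43 ± 0.184 under P deficiency (limma, adjusted p = 0.228 by Benjamini-Hochberg), and neither passed. NLA1, the ubiquitin ligase of the same pathway, fell under P deficiency from 373 ± 85.5 to 190 ± 45.9, which is -0.97 ± 0.220 in log2 (limma, adjusted p = 0.045 by Benjamini-Hochberg). The call on NLA1 was lost without P deficiency replicate 1 or 2 or any 1 control replicate, with adjusted p up to 0.14. PP95, a phosphatase that acts on PT8 in rice, differed between N and P deficiency by 0.44 (limma, adjusted p = 0.047 by Benjamini-Hochberg), a call lost whichever of the 6 libraries was left out.

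Among 12 sensing and transcription genes, 6 rose, 1 fell and 5 were not called under P deficiency, while 2 of 11 rose and 1 fell under N deficiency. Those that changed under N deficiency were SPX2, PHR4 and PHR3, and each call was lost without any of 4 libraries, with adjusted p up to 0.093, 0.104 and 0.099. Control replicates 1 and 2 and N deficiency replicate 3 were among the 4 for all of these genes, with N deficiency replicate 1 for SPX2 and PHR4 and control replicate 3 for PHR3. The fall of PHR3 under P deficiency was lost without P deficiency replicate 1 or 2 or control replicate 1 or 2, with adjusted p up to 0.059. PHR2, the central activator of PHT1 genes in rice, was not called in any comparison, with log2 fold changes of -0.22 under P deficiency (limma, adjusted p = 0.19 by Benjamini-Hochberg) and -0.11 under N deficiency (limma, adjusted p = 0.55 by Benjamini-Hochberg). The list genes with the largest fitted rises under P deficiency, SPX6, SPX5 and SPX3, belong to the SPX family, though too few control reads were counted to rank SPX6 and SPX3. SPX5 rose by 6.70 on the log2 scale (limma, adjusted p = 4.8e-06 by Benjamini-Hochberg). SPX6 and SPX3 had 2 control reads each, so their ratios to control were 294 (95% counting interval 81.1 to 2436) and 43.0 (11.5 to 361).

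Among 6 genes of phosphate export and vacuolar storage, 3 rose under P deficiency, and 1 rose and 1 fell under N deficiency. The vacuolar transporter gene SPX-MFS2 fell under N deficiency, at -4.02 in log2 (limma, adjusted p = 0.0021 by Benjamini-Hochberg), and SPX-MFS1 rose, at 2.79 (limma, adjusted p = 0.016 by Benjamini-Hochberg). The call on SPX-MFS1 was lost without N deficiency replicate 2 or 3 or control replicate 2, with adjusted p up to 0.074. Among the 3 that rose under P deficiency, that of SPX-MFS2 was lost without P deficiency replicate 1 or 2 or control replicate 1 or 2, with adjusted p up to 0.077. PHR3, a MYB-type factor of the sensing group, also fell under N deficiency, at -0.64 (limma, adjusted p = 0.033 by Benjamini-Hochberg). Set directly against each other, N minus P was -6.32 for SPX5 (limma, adjusted p = 5.6e-08 by Benjamini-Hochberg), -6.31 for SPX6 (limma, adjusted p = 2.4e-04 by Benjamini-Hochberg) and -5.28 for SPX-MFS2 (limma, adjusted p = 1.6e-04 by Benjamini-Hochberg). Over the whole list, 3 of 24 were higher and 10 lower under N than under P deficiency, where 1.39% and 2.4% of all genes tested were.

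For 6 PHT1 genes that rose under P deficiency and were measured in all libraries, the genes with the most similar profile over the 9 libraries were found among 25829 candidates. Likeness was the root mean square difference between log2(value + 1) profiles, each centred on its own mean, so a smaller value is a closer match. The profiles share libraries and depth, so these values are descriptions with no test. PT8 had the closest matches, Os08g0433200 at 0.177, Os05g0534100 at 0.179 and Os08g0156600 at 0.215. The second carries a PAP2 domain and the third a major facilitator superfamily domain. PT2 was nearest to Os04g0608600 at 0.306, with a thioredoxin-like domain, Os01g0266800 at 0.323 and Os07g0412100 at 0.333. PT4 was nearest to Os02g0822900 at 0.319, with U-box and protein kinase domains, Os10g0539200 at 0.342 and Os09g0564400 at 0.371.

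The transporters that rose from near silence had looser matches. PT3, PT6 and PT9 had few reads per library in control and under N deficiency. Counting noise adds to this measure, and its part here was not tested. PT3 was nearest to Os10g0444566, the model that overlaps it, at 0.447, then to Os06g0291500 at 0.596 and SPX5 at 0.614. PT6 was nearest to SPX5 at 0.656, the monogalactosyldiacylglycerol synthase gene Os08g0299400 at 0.756 and Os10g0444566 at 0.816. PT9 was nearest to the purple acid phosphatase gene Os12g0576600 at 0.690, the cytochrome P450 gene Os06g0570566 at 0.819 and SPX6 at 0.877. Among the PHT1 genes themselves, the nearest to each of the 6 lay at 0.540 to 1.08. SPX5 and Os10g0444566 were near both PT3 and PT6, and the reads of Os10g0444566 and PT3 cannot be told apart.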

How the data were processed

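The labels describe TruSeq RNA libraries from roots, with 3 biological replicates in each of 3 groups. The submitters' processing notes name HISAT2 2.0.5 and hg38, a human assembly; no source used here names the rice build, the counter, its strand setting or the size-factor method. The deposited signal per gene and library is a read count divided by 1 size factor, scaled separately in 2 tables of 35128 and 35059 genes. Per the file headers, the authors also gave a log2 fold change and p-values for each comparison. Whole reads were recovered from 100% of values to within 0.001, and 0 control read counts disagreed over the 34285 genes that both tables hold. Replicates differed beyond counting noise (chi-square over its degrees of freedom 8.75 to 53.2), so none was counted as a repeat.

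The test was limma 3.58.1, run in R 4.3.3 on log2(value + 1) with its trend option, over all genes with a mean of at least 1 in 1 group, with Benjamini-Hochberg adjustment over all of them. Each deficiency was tested on the 6 libraries of its own table. N against P deficiency was tested over 9 libraries, on recovered reads with median-of-ratios size factors. Counting intervals are exact (Clopper-Pearson) and cover counting error only.

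Alternatives were edgeR 4.0.16 and DESeq2 1.42.0 on the recovered reads, a pseudocount of 0.1, no filter, a minimum mean of 10, a replicate block, all 9 libraries in 1 fit, and leaving out each library. The PHT1 genes, lists and markers were chosen with earlier results of these data known. The text names every PHT1 gene, PHF1, PHO2, NLA1 and PHR2, up to 3 further called list genes a comparison, and the 3 nearest profiles of each PHT1 gene that rose; PP95 and the neighbours were named after their values were seen. PT10 has no profile because it was in 1 table. RefSeq synonyms (assembly ASM3414082v1) matched 9 of 10 symbols, all but PT9, and each lay on the chromosome given here. Sequences of promoters and proteins were not used here. The fits were tested on simulated data with the same spread for all genes and changes only in well-counted genes. That test does not cover PHT1 genes with few reads.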

Additional observations from a re-analysis of the deposited data

How the results depend on the processing

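Under P deficiency 115 of 117 log2 fold changes of the transporters over the alternatives kept their direction and side of the threshold, and in N against P deficiency all 105 did. The exceptions were both PT1, which ranged from -0.14 to 0.12 with single libraries left out and was never called. The 7 genes called under P deficiency were called under each alternative that held them; the fit over 9 libraries does not hold PT10 and called the other 6. The results under N deficiency were less stable, with 82 of 102 the same, 10 weaker, 4 stronger and 6 reversed. With single libraries left out 0 to 1 transporters were called there in place of 2. PT2 passed in edgeR, DESeq2, the minimum mean of 10 and the fit over 9 libraries. PT5 reversed to -0.10 in edgeR and -0.064 in DESeq2 and ranged from -0.082 to 0.94 with single libraries left out, and PT3 ranged from -0.44 to 0.38. Counts over all genes called with single libraries left out were 2622 to 3710 under N deficiency (4194 with all), 696 to 3384 under P deficiency (2047 with all) and 689 to 1577 in N against P deficiency (1241 with all). The count of 3384 came without P deficiency replicate 3. DESeq2 called 3256 and 2270 genes in the latter comparisons. The cause was not tested. The median of all genes moved by under 0.1 under each setting run.

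With the replicate number as a block, the same 2, 7 and 6 transporters were called, and 4661, 2106 and 1522 genes in all. The labels do not say what a replicate number shares. The deviations of same-numbered libraries had correlations from 0.19 to 0.37 in the 6 pairs of replicates 2 and 3 and from -0.10 to 0.04 in the 3 pairs of replicate 1, so the numbers were not taken as pairing every library, and 6 of 9 libraries correlated best with their own number. Depth limits PT3, PT5, PT6 and PT9 in control and under N deficiency, where each had few reads per library.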
